A study of Mus musculus with 4 samples.

Results

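The chemokine system that draws monocytes into tissue was followed in mouse tumors through 8 genes: the receptor Ccr2, the ligands Ccl2, Ccl7, Ccl12 and Ccl8 of the gene cluster that holds its main ligands, and the further myeloid CC chemokines Ccl6, Ccl9 and Ccl24. They were chosen by name with earlier results of these data known, and all 8 were found among the 32285 genes in the count tables. The 4 libraries came from untreated WT and Lrrc25-/- hosts that carried B16F10, a mouse melanoma line, taken on day 14, or MC38, a mouse colon carcinoma line, taken on day 26. Each library was 1 pool of tumor pieces of 100 mm3 from each of 3 mice, so every group held 1 pool and the difference between hosts of one group was not measured. Beads enriched CD45+ cells, which were then mixed 5:1 with the unsorted suspension, so the makeup of the cells in a library is set in part by that step. The deletion was in the host, while the inoculated lines carry no such label; strain, age and sex of the hosts were not given in the sources used here. Because the tumor models differed in line, day and hosts, a difference between models cannot be told apart from a difference of day.

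Ccr2 is a G-protein-coupled receptor of inflammatory monocytes, which leave the bone marrow and enter inflamed tissue and tumors along gradients of its ligands, and whose expression falls as these cells become macrophages. Ccl2 and Ccl7 are ligands of Ccr2 in mouse and human, and Ccl12 is a mouse ligand of Ccr2. Ccl8 binds CCR2 in human, but in mouse it is best known as a ligand of Ccr8. Ccl6 and Ccl9 are mouse chemokines of myeloid cells that act through Ccr1, and Ccl24, or eotaxin-2, acts through Ccr3 on eosinophils and is made by macrophages under IL-4.

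Positions are given for GRCm38 (mm10) with the GENCODE M21 annotation, where all 8 are protein-coding genes. Ccl2 (ENSMUSG00000035385) lies at chr11:82035571-82037453, Ccl7 (ENSMUSG00000035373) at chr11:82045712-82047525, Ccl12 (ENSMUSG00000035352) at chr11:82101845-82103400 and Ccl8 (ENSMUSG00000009185) at chr11:82115185-82116799, each with 3 exons on the + strand. Of the 8 genes these 4 follow one another, with 8258 bases between Ccl2 and Ccl7, 54319 between Ccl7 and Ccl12 and 11784 between Ccl12 and Ccl8. Whether genes outside the 8 lie in these gaps was not looked at. Ccl9 (ENSMUSG00000019122, chr11:83572919-83578636) and Ccl6 (ENSMUSG00000018927, chr11:83587882-83593087) form a second pair on the - strand, 9245 bases apart and 1456119 bases beyond Ccl8. Ccr2 (ENSMUSG00000049103) lies at chr9:124101950-124113557 on the + strand and Ccl24 (ENSMUSG00000004814) at chr5:135569937-135573049 on the - strand.

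Promoter windows of 300 bases, from 250 bases before the start to 50 after it, were taken from RefSeq (GRCm38.p6) and matched 5 of the 8 genes. Those of both neighbour pairs are shown, because the genes of each pair lie side by side and differed in the class of highest level or in their pattern between the libraries. In Ccl12 (chr11:82101595-82101894, + strand) and Ccl8 (chr11:82114935-82115234, + strand) the capitals mark the match to TATAAA. In Ccl6 (chr11:83593038-83593337, - strand) and Ccl9 (chr11:83578587-83578886, - strand) they mark the longest run of bases that these windows share.
Ccl12: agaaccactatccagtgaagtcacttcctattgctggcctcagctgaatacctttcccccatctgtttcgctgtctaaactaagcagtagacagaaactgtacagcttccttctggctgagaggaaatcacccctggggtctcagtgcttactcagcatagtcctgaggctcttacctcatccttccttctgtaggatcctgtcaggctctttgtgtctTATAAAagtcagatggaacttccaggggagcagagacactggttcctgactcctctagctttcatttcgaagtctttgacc
Ccl8: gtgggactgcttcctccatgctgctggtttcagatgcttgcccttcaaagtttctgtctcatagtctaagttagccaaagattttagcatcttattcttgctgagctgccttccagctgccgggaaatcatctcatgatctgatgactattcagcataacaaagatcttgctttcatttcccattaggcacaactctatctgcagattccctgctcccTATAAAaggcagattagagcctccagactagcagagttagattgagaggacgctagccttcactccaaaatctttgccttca
Ccl6: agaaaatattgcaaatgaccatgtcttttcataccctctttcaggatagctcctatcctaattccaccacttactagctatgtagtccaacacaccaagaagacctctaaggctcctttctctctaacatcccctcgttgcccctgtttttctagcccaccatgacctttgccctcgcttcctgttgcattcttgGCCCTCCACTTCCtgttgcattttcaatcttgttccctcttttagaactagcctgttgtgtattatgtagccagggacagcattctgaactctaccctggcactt
Ccl9: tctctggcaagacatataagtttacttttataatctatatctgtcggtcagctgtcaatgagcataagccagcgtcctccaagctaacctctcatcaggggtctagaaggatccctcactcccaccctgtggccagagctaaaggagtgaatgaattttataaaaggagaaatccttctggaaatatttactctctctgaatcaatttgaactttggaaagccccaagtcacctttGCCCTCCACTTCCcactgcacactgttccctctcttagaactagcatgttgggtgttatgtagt

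The windows of Ccl12 and Ccl8 had 58% of bases identical in a global alignment, the highest of the 10 pairs, and a longest shared run of 11 bases. Ccl6 and Ccl9 had 49.7% identical bases, within the range of pairs that are not neighbours, and a longest shared run of 13 bases. Of 4 motifs searched on both strands, TATAAA stood on the + strand at base 220 of the Ccl12 window and base 219 of the Ccl8 window, and 13.6% of all 32851 windows held it. The window of Ccl9 held TATAAA 3 times, at bases 27, 157 and 159, and the last pair of these matches, on opposite strands, overlap. GAGGAA was found in Ccl12 and Ccl8 (28.3% of all windows), and TGANTCA (7.81%) in Ccl9, while TTCNNNGAA (8.30%) was in none of the 5 windows. The windows of Ccl6 and Ccr2 held no match to any of the 4 motifs. These matches describe letters and not bound sites.

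The libraries held 10490 to 18545 cell barcodes and 105338548 to 138841749 unique molecular identifiers (UMIs, counts of captured RNA molecules). After filtering, 9309 to 15742 cells a library remained, with a median of 4329 to 9659 UMIs, and any pair of libraries shared 96 to 247 barcodes. Cells were assigned to classes by marker genes that hold none of the 8 genes. Monocytes and macrophages were gated as one class, with 3610 cells in WT B16F10, 4123 in Lrrc25-/- B16F10, 7488 in WT MC38 and 7560 in Lrrc25-/- MC38. In that class the 8 macrophage markers summed to between 9332 and 14710 counts per 1000000 UMIs of the class (CPM), the T cell markers to between 13.3 and 72.4 and the fibroblast markers to between 9.90 and 34.2. Melanoma markers summed to 430 and 299 CPM in the B16F10 pools. Lrrc25 itself, the check of the labels, fell from 164 to 4.94 CPM in B16F10 and from 98.5 to 2.14 CPM in MC38 (edgeR's quasi-likelihood test, Benjamini-Hochberg adjusted p = 1.87e-08). With 1 pool a group, values of one model were compared without a test: a gene counted as higher or lower when it differed at least 1.5-fold with 20 CPM in either pool and 50 UMIs over both. Intervals are 95% intervals of counting error only and do not cover differences between mice.

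Ccl2, the main Ccr2 ligand, had its highest levels in macrophages, fibroblasts and, in MC38, Sox9/Tnnt2/Crabp2+ cells. In monocytes and macrophages its level was 7578 CPM in WT B16F10, 5998 in Lrrc25-/- B16F10, 740 in WT MC38 and 480 in Lrrc25-/- MC38. In fibroblasts it was 3111, 5353, 4641 and 3860 CPM in the same order. Macrophages thus had the highest level of the compared classes in B16F10, though in Lrrc25-/- B16F10 by only 1.12 times, and fibroblasts led there by the mean of per-cell CPM. In MC38 fibroblasts had the highest level, with Sox9/Tnnt2/Crabp2+ cells next at 1289 CPM in WT and 1501 in Lrrc25-/-. These last cells, gated with a list of MC38 tumor markers, had 0 UMIs of Krt18 and Cldn4 and are therefore called by their leading markers. Melanoma cells had only 84.9 and 101 CPM of Ccl2.

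Fibroblasts were few and gave only 1.05% to 2.62% of the Ccl2 UMIs of kept cells in any library. Monocytes and macrophages gave 88.6% of the Ccl2 UMIs of all kept cells in WT B16F10 and 85.8% in Lrrc25-/- B16F10, but 33.9% in WT MC38 and 29.0% in Lrrc25-/- MC38. Sox9/Tnnt2/Crabp2+ cells gave 48.5% and 57.7% of them in the MC38 pools, more than any other class there.

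**Figure D1:**
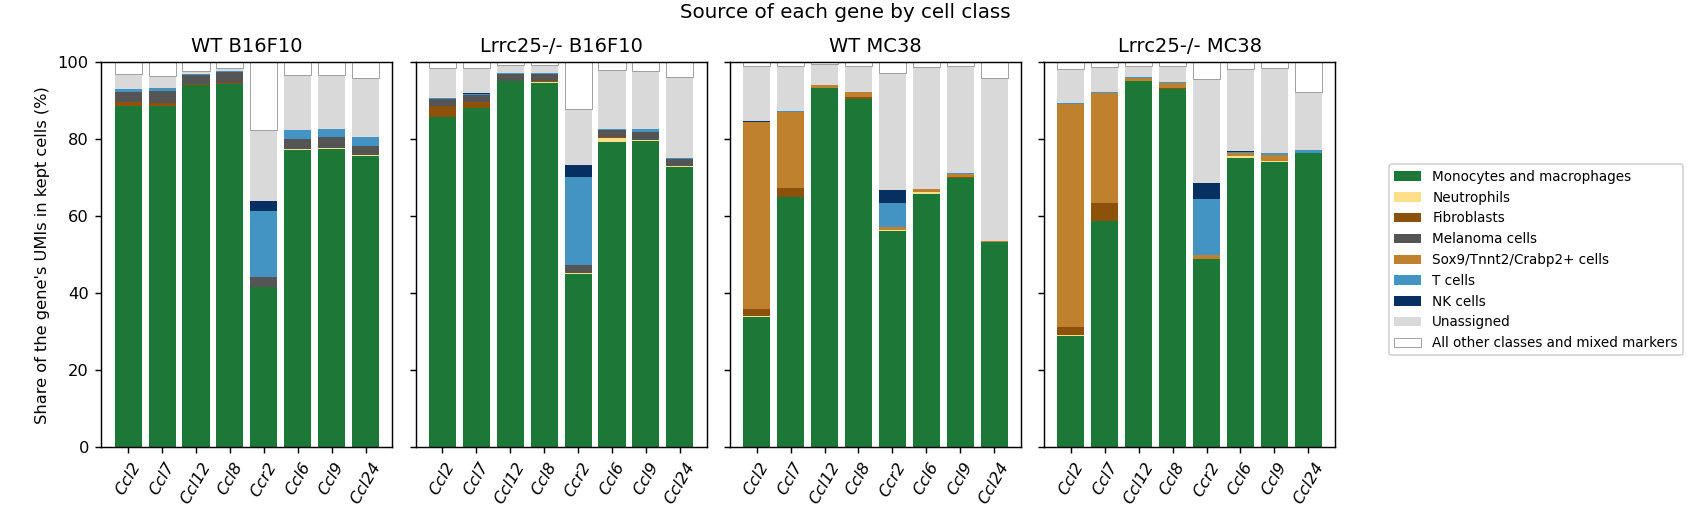
Share of each gene's UMIs, in percent of all kept cells of a library, that came from each cell class (colours), with 1 panel for each of the 4 libraries and 1 stacked bar for each gene. For Ccl12 and Ccl8 monocytes and macrophages gave 90.5% to 95.2% in all 4 libraries, while for Ccl2 their share was 88.6% in WT B16F10 and 33.9% in WT MC38.

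Ccl7, which attracts monocytes through Ccr2 and other receptors, also had its highest levels in macrophages and fibroblasts. Monocytes and macrophages had 5042 CPM in WT B16F10, 4068 in Lrrc25-/- B16F10, 650 in WT MC38 and 390 in Lrrc25-/- MC38, and fibroblasts 1896, 2059, 2296 and 3094. Its order over classes was led by macrophages in both B16F10 pools and by fibroblasts in both MC38 pools. Sox9/Tnnt2/Crabp2+ cells had 244 and 298 CPM and gave 19.98% and 28.6% of the Ccl7 UMIs in MC38, less than macrophages with 65.0% and 58.8%, while fibroblasts gave 2.20% and 4.58%.

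Ccl12 and Ccl8 were macrophage chemokines in all 4 libraries. Ccl12 stood at 3119 CPM in monocytes and macrophages of WT B16F10, 1894 in Lrrc25-/- B16F10, 542 in WT MC38 and 384 in Lrrc25-/- MC38. In each library that level was at least 14.9 times that of the next class. Ccl8 stood at 3421, 2457, 560 and 1222 CPM in the same order. Its next class was fibroblasts in 3 libraries (299, 255 and 188 CPM). In WT B16F10 neutrophils (183 CPM from 18 UMIs), plasmacytoid dendritic cells (181 CPM) and fibroblasts (175 CPM) lay close together. Of these 4 ligands, Ccl8 alone had a higher level in Lrrc25-/- than in WT macrophages of MC38.

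**Figure D2:**
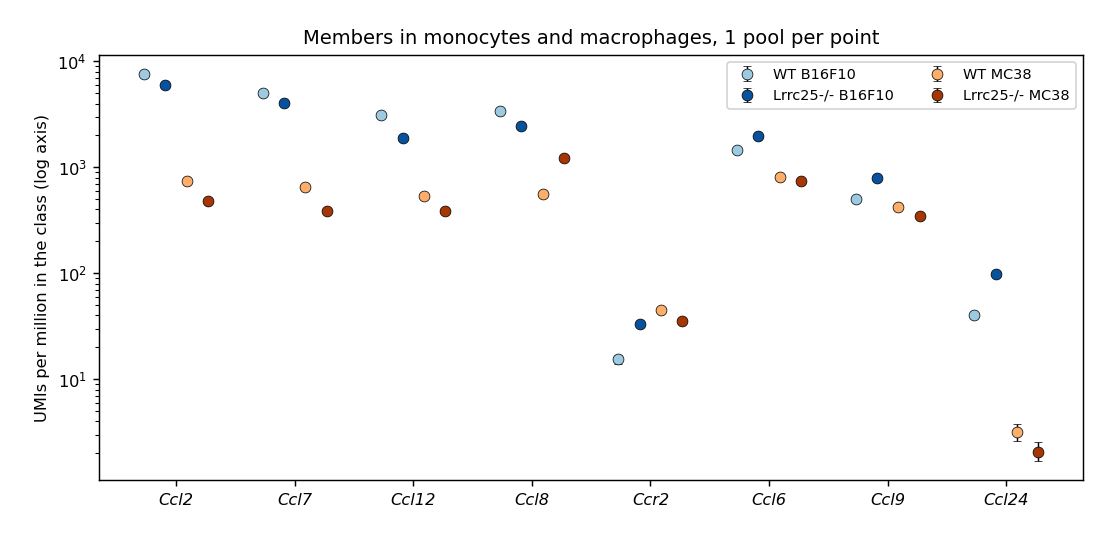
Level of each of the 8 genes in monocytes and macrophages, in CPM on a log axis, with 1 point for each of the 4 libraries and bars for the 95% counting interval. Ccl2, Ccl7, Ccl12 and Ccl8 lie higher in both B16F10 pools than in both MC38 pools, and Ccl8 is the ligand of these whose MC38 pools differ most, at 560 and 1222 CPM.

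Within the macrophages the level of the ligands varied with the markers of the cell. The class was split into C1q-negative monocytes, C1q+ cells that still had Ly6c2 or Plac8 (transitional cells), cycling macrophages and macrophages sorted by Arg1, Cxcl9 and Mrc1. The remaining macrophages took all other cells of the class, so they can include cells under the C1q limit without Ly6c2 or Plac8. In B16F10 Ccl2 was highest in cycling macrophages (9034 CPM in WT and 7652 in Lrrc25-/-) and Mrc1+ macrophages (8313 and 7124), and low in C1q-negative monocytes (1221 and 1556). In MC38 the order differed by pool: C1q-negative monocytes were highest in WT at 2153 CPM, while in Lrrc25-/- they had 506 against 741 in cycling and 666 in Mrc1+ macrophages. Ccl8 was highest in Cxcl9+ Arg1- macrophages of B16F10, at 7077 CPM in WT and 4331 in Lrrc25-/-. In MC38 it had similar WT levels in Cxcl9+ Arg1- and Mrc1+ macrophages, 1020 and 1021 CPM, and 17.9 CPM in C1q-negative monocytes.

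**Figure D3:**
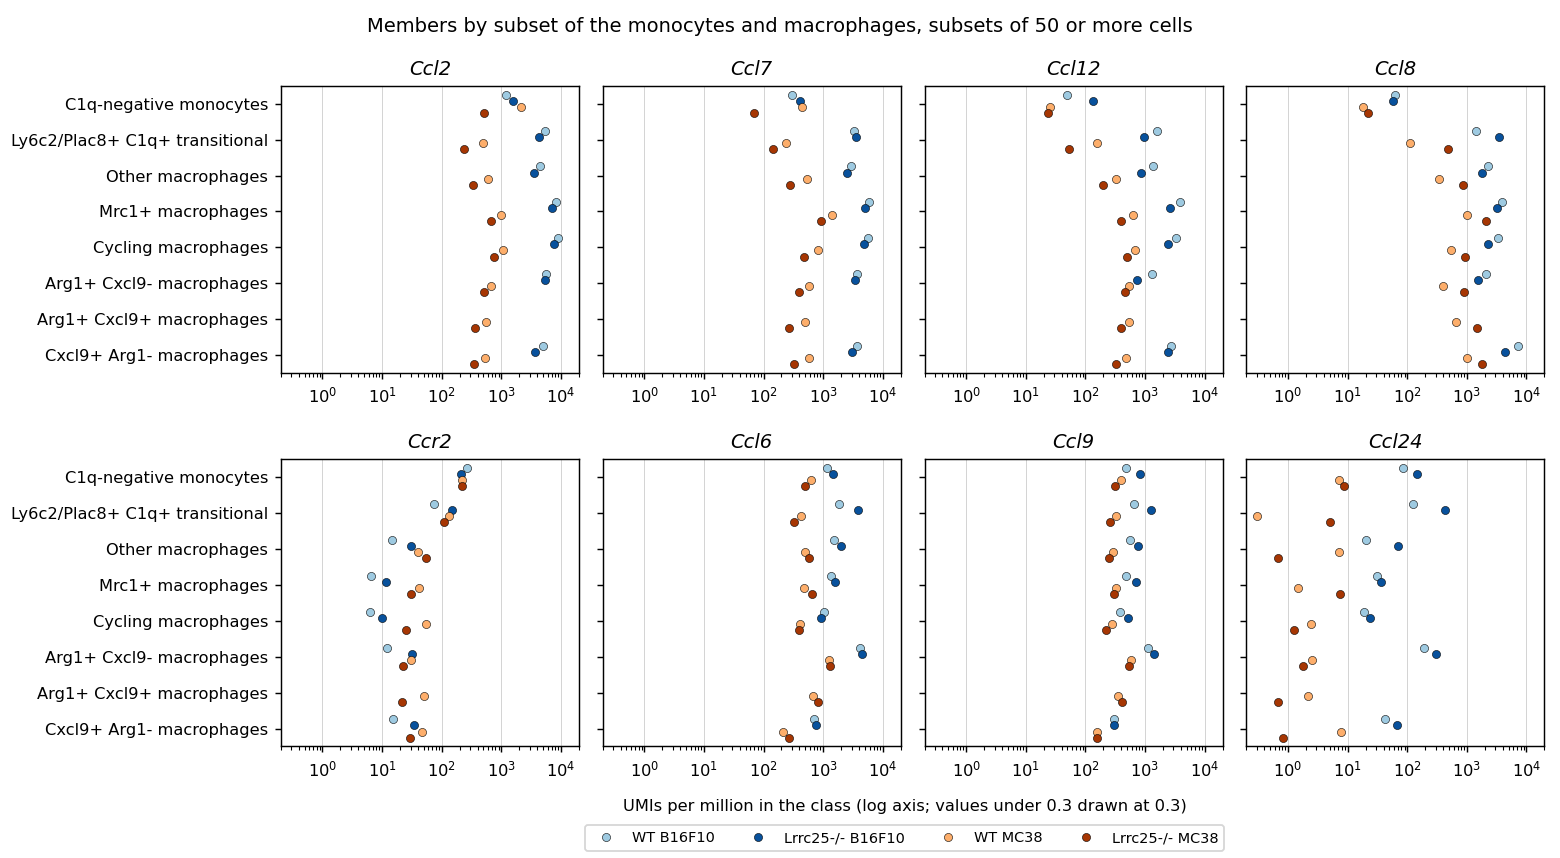
Level of each gene, in CPM on a log axis, in the monocyte and macrophage subsets with 50 or more cells; each panel is a gene, each row a subset and each point 1 library, with values under 0.3 drawn at 0.3. Ccr2 is highest in C1q-negative monocytes in every library (213 to 266 CPM), while Ccl8 in B16F10 is highest in Cxcl9+ Arg1- macrophages (7077 and 4331 CPM).

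Between Lrrc25-/- and WT pools, the monocytes and macrophages of B16F10 had 3 members higher and 1 lower. Ccr2, Ccl9 and Ccl24 were higher, against 3.82% of the 4686 genes measured, and Ccl12 was lower, against 0.811%. In MC38 Ccl8 was higher, against 0.8% of 5748 genes, and Ccl2 and Ccl7 were lower, against 2.57%; Ccl24 lay under the limit for being measured. The members' median log2 fold was 0.06 in B16F10 and -0.32 in MC38, beside 0.02 and -0.01 over all genes measured.

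The same rule was applied within subsets, where the background was wider in those with few cells. In transitional cells of B16F10 5 members were higher, against 14.2% of genes, and 1 lower, against 7.15%. These were 56 cells in WT and 188 in Lrrc25-/-, and the WT cells held 37 UMIs of Ccr2 and 64 of Ccl24. In C1q-negative monocytes of B16F10 3 were higher (13% of genes), in Arg1+ Cxcl9- macrophages 2 were higher (5.84%) and 1 lower (2.77%), and in Cxcl9+ Arg1- macrophages 2 were higher (9.92%) and 1 lower (2.79%). Mrc1+ macrophages of B16F10 had 1 higher (2.57%), the remaining macrophages 2 higher (5.22%) and 1 lower (1.78%), and cycling macrophages 0 of 7 measured in either direction (3.68%).

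In MC38 Ccl8 was the 1 member higher in each of the 7 subsets other than C1q-negative monocytes. The background for it was 6.9% of genes in transitional cells, 0.739% in cycling, 0.928% in Arg1+ Cxcl9-, 1.04% in Arg1+ Cxcl9+, 1.11% in Cxcl9+ Arg1-, 2.78% in Mrc1+ and 3.54% in the remaining macrophages. Lower members numbered 2 in C1q-negative monocytes (6.34% of genes), 3 in transitional cells (7.33%), 2 in cycling (3.04%), 2 in Arg1+ Cxcl9+ (4.34%), 3 in Cxcl9+ Arg1- (4.54%), 3 in Mrc1+ (4.83%) and 3 in the remaining macrophages (8.26%). Ccl7 was among them in all of these.

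For Ccl2 the ratio of Lrrc25-/- to WT was 0.791 (interval 0.787 to 0.796) in B16F10, which was not past the size rule, and 0.648 (0.637 to 0.660) in MC38. Ccl7 had ratios of 0.807 and 0.600 (0.589 to 0.612 in MC38). Both genes were thus lower in Lrrc25-/- than in WT pools over the class in both models, past the size rule in MC38 but not in B16F10. The MC38 call of Ccl2 was lost with TMM-scaled CPM (log2 fold -0.55), without C1q-negative monocytes (-0.58) and in thinned cells (-0.58), while that of Ccl7 was kept. In C1q-negative monocytes of B16F10 the ratios ran above 1, at 1.27 for Ccl2 and 1.38 for Ccl7, not past the size rule. In MC38 the share of monocytes and macrophages with a Ccl7 UMI, after thinning each cell to 1000 UMIs, was 29.2% in WT and 19.0% in Lrrc25-/-. In T cells, which are not a known main source of Ccl2, its thinned share was 4.92% and 3.31% in MC38 against 32.8% and 26.5% in macrophages; in B16F10 it was 18.3% and 14.2% against 78.9% and 73.6%. Median depths before thinning were 2666.5 to 4844 UMIs in T cells and 4695 to 8600 in monocytes and macrophages.

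C1q-negative monocytes of MC38 had the largest differences of Ccl2 and Ccl7 among the compared subsets. Ccl2 went from 2153 CPM in WT to 506 in Lrrc25-/- (ratio 0.235, interval 0.215 to 0.257), and Ccl7 from 447 to 68.1 (ratio 0.152, interval 0.121 to 0.191). They numbered 160 cells in WT and 339 in Lrrc25-/- MC38. Ccl7 was also lower in 6 of the 7 other subsets, and in Arg1+ Cxcl9- macrophages its log2 fold was -0.55. In fibroblasts of B16F10 Ccl2 ran the other way, with a ratio of 1.72 (1.65 to 1.80), and Ccl8 was higher too, where 12.2% of genes were. Ccl12 and Ccl6 were lower in them, where 5.78% of genes were. There were 97 fibroblasts in WT and 87 in Lrrc25-/-. Ccl2 was also higher in B16F10 endothelial cells, from 488 to 990 CPM, where 7.78% of genes were higher. The same held for migratory dendritic cells (151 to 346 CPM, 14.6% of genes) and neutrophils (355 to 535 CPM, 28% of genes). It was lower in T cells, NK cells, conventional dendritic cells and plasmacytoid dendritic cells of B16F10. In MC38 fibroblasts, with 52 and 59 cells, none of 3 members measured was past the size rule, beside 24.6% of genes in either direction.

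Ccl12 had a ratio of 0.607 (0.601 to 0.613) in B16F10 and 0.708 in MC38, not past the size rule in the latter. In B16F10 it was lower in transitional cells, from 1600 to 966 CPM, in Arg1+ Cxcl9- macrophages, from 1291 to 732, and in the remaining macrophages, from 1369 to 863. C1q-negative monocytes went the other way, from 49.8 CPM in WT to 133 in Lrrc25-/-. At a common mix of subsets the log2 fold of Ccl12 in B16F10 was -0.54, no longer past the size rule.

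Ccl8 was 2.18 times as high in Lrrc25-/- as in WT macrophages of MC38 (2.15 to 2.22), with a thinned share of positive cells of 23.4% in WT and 36.0% in Lrrc25-/-. It was higher in all 7 subsets of MC38 other than C1q-negative monocytes. The log2 folds ran from 0.74 in cycling macrophages to 2.14 in transitional cells, where it went from 111 to 490 CPM. In C1q-negative monocytes its levels, 17.9 and 21.7 CPM, were too low to be measured by the rule. In Sox9/Tnnt2/Crabp2+ cells Ccl8 was 9.59 CPM in WT and 29.2 in Lrrc25-/-, where 0.943% of genes were higher, and in T cells 5.96 and 25.04, where macrophage markers summed to 157 and 314 CPM; their part in these low values was not tested. In B16F10 Ccl8 had a ratio of 0.718 over the whole class, was lower in Cxcl9+ Arg1- macrophages (log2 fold -0.71) and higher in transitional cells, from 1448 to 3411 CPM (log2 fold 1.24).

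**Figure D4:**
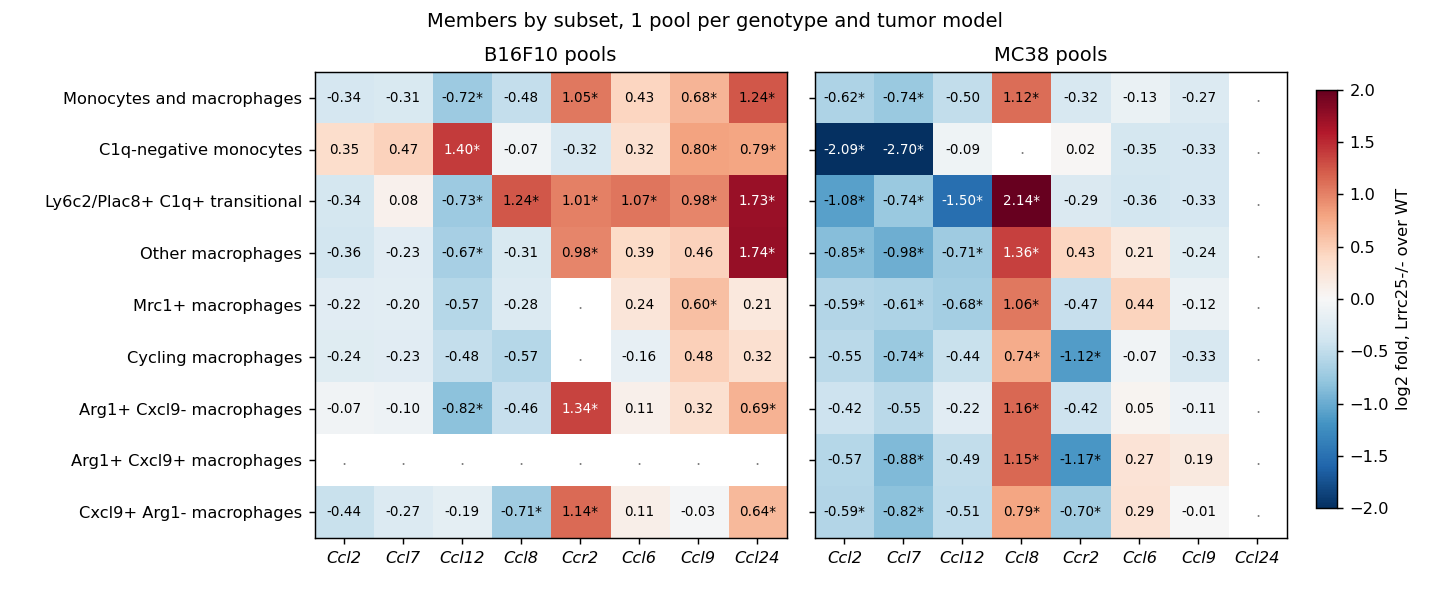
Log2 fold of Lrrc25-/- over WT for each gene in each subset of monocytes and macrophages, in the B16F10 and the MC38 pools (panels), as the printed number and the colour; an asterisk marks a value past the size rule and a dot one not measured. Ccl8 in MC38 is between 0.74 and 2.14 in every subset but C1q-negative monocytes, and Ccl2 and Ccl7 in C1q-negative monocytes of MC38 lie at -2.09 and -2.70.

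Ccr2 was found in monocytes, lymphoid cells and dendritic cells. C1q-negative monocytes had 266 CPM in WT B16F10, 213 in Lrrc25-/- B16F10, 217 in WT MC38 and 220 in Lrrc25-/- MC38. NK cells, the next class, had 159, 207, 209 and 168 CPM in the same order. Conventional dendritic cells had 57.0, 87.3, 57.0 and 43.4 CPM, above T cells in both WT pools and below them in both Lrrc25-/- pools. Plasmacytoid dendritic cells of B16F10 had 46.7 CPM in WT and 57.9 in Lrrc25-/-. In the thinned cells 15.7% to 23.2% of C1q-negative monocytes and 13.8% to 16.8% of NK cells had a Ccr2 UMI, against 0.0316% and 0.643% of melanoma cells, so the share in these cells was well above that in tumor cells. Fibroblasts had 0 or 1 UMI of Ccr2 in each library.

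Ccr2 was lower in each macrophage subset than in C1q-negative monocytes of the same library. Transitional cells had 73.0 CPM in WT B16F10, 148 in Lrrc25-/- B16F10, 133 in WT MC38 and 109 in Lrrc25-/- MC38. Mrc1+ macrophages had 6.62, 11.5, 41.9 and 30.1 CPM, cycling macrophages 6.25, 10.04, 55.4 and 24.9, and Arg1+ Cxcl9- macrophages 12.2, 32.4, 30.9 and 22.8. The levels of C1q-negative monocytes thus lay close together in the 4 libraries, while those of Mrc1+ and cycling macrophages were higher in both MC38 pools than in both B16F10 pools. In transitional and Arg1+ Cxcl9- cells the Lrrc25-/- pools ran the other way, with the B16F10 pool above the MC38 pool.

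Over the whole class Ccr2 had 15.4 CPM in WT and 32.9 in Lrrc25-/- B16F10, a ratio of 2.14 (1.93 to 2.38), and 44.9 and 35.8 CPM in MC38, a ratio of 0.797. The makeup of the class moved with this: C1q-negative monocytes were 4.90% of it in WT and 10.2% in Lrrc25-/- B16F10, and transitional cells 1.55% and 4.56%. At a common mix of subsets the log2 fold in B16F10 was 0.43, not past the size rule, against 1.05 over the whole class. Within subsets of B16F10, Ccr2 was higher in transitional cells, in Arg1+ Cxcl9- macrophages (12.2 to 32.4 CPM), in Cxcl9+ Arg1- macrophages (15.0 to 34.2) and in the remaining macrophages (14.8 to 30.2), but in C1q-negative monocytes its log2 fold was -0.32. In MC38 it was lower in cycling macrophages, in Arg1+ Cxcl9+ macrophages (50.4 to 21.8 CPM) and in Cxcl9+ Arg1- macrophages (47.6 to 28.9), although C1q-negative monocytes were 2.14% of the class in WT and 4.48% in Lrrc25-/-.

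T cells were the only compared class in which Ccr2 was past the size rule in both models. Conventional dendritic cells were past it in B16F10, from 57.0 to 87.3 CPM, where 11.6% of genes were higher. In MC38, with 17 and 27 UMIs, they were under the limit for being measured. The level in T cells went from 53.8 CPM in WT to 116 in Lrrc25-/- B16F10, a ratio of 2.16 (1.84 to 2.54), where 12.3% of genes were higher. In MC38 it went from 49.6 to 81.4 CPM, a ratio of 1.64 (1.38 to 1.96), where 4.21% were. T cells gave 17.1% of the Ccr2 UMIs of kept cells in WT and 22.7% in Lrrc25-/- B16F10, and 6.28% and 14.5% in MC38. The 6 ligands Ccl2, Ccl7, Ccl12, Ccl8, Ccl6 and Ccl9 were lower in the T cells of Lrrc25-/- B16F10, for example Ccl2 at 584 and 147 CPM, where 4.54% of genes were lower. Macrophage markers in those T cells summed to 651 CPM in WT and 333 in Lrrc25-/-, and their part in this was not tested. Lower ligands were not confined to T cells of B16F10. NK cells had 4 of 5 measured members lower, against 7.94% of genes, and plasmacytoid dendritic cells 5 of 5, against 7.13%. Conventional dendritic cells had 3 of 7 lower (4.91% of genes), all ligands, and 1 higher, Ccr2. Migratory dendritic cells had 2 of 6 higher (14.6%) and 0 lower. Neutrophils had 2 of 5 higher (28%) and 1 lower (15.1%), and endothelial cells 2 of 5 higher (7.78%) and 1 lower (6.55%). The NK cells numbered 64 in WT and 135 in Lrrc25-/- B16F10. Their Ccl2 level was 7.30% and 3.60% of that in monocytes and macrophages. The part of macrophage RNA in the values of these classes was not tested.

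**Figure D5:**
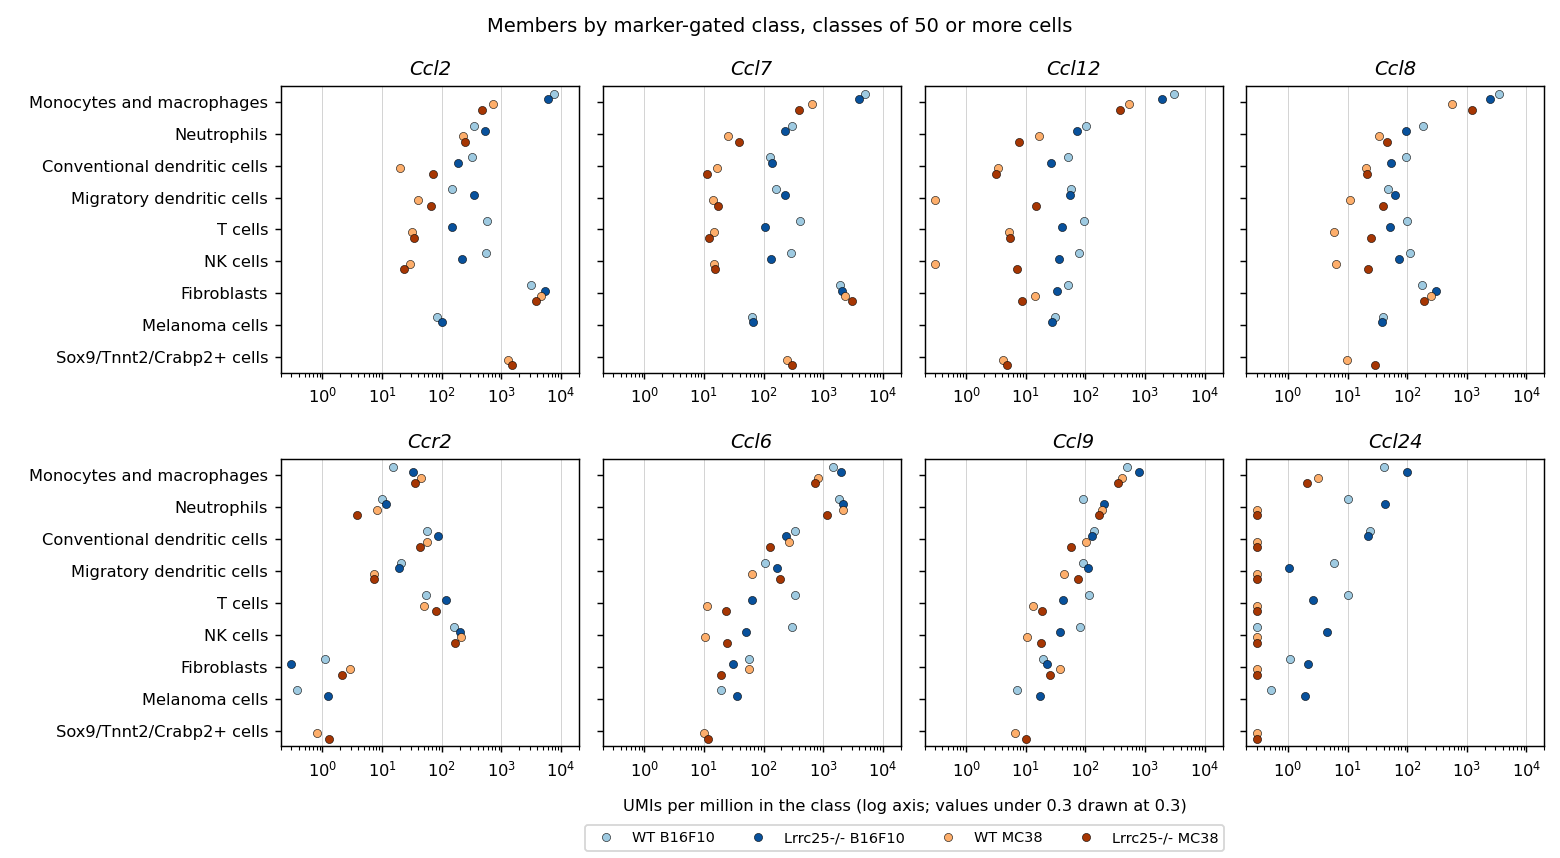
Level of each gene, in CPM on a log axis, in the main cell classes with 50 or more cells; each panel is a gene, each row a class and each point 1 library, with values under 0.3 drawn at 0.3. Ccr2 is highest in NK cells (159 to 209 CPM), Ccl6 in neutrophils (1152 to 2157 CPM) and Ccl12 in monocytes and macrophages (384 to 3119 CPM).

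Ccl6 and Ccl9, the neighbouring Ccr1 ligands, differed in the class with the highest level. Ccl6 was highest in neutrophils, with 1826 CPM in WT B16F10, 2157 in Lrrc25-/- B16F10, 2120 in WT MC38 and 1152 in Lrrc25-/- MC38, and monocytes and macrophages followed with 1460, 1969, 810 and 738. Ccl9 was highest in monocytes and macrophages, with 498, 797, 418 and 348 CPM, while neutrophils had 91.3, 207, 192 and 170. Both were highest among the macrophage subsets in Arg1+ Cxcl9- cells of B16F10, where Ccl6 had 4121 CPM in WT and 4433 in Lrrc25-/- and Ccl9 1136 and 1422. The lead of neutrophils for Ccl6 was only 1.10 times in Lrrc25-/- B16F10, and they were few. In WT B16F10 neutrophils held 180 of the 59865 Ccl6 UMIs of kept cells, and monocytes and macrophages 46160. In WT MC38 these were 254 and 29600 of 44982. Monocytes and macrophages also held 15745 of the 20290 Ccl9 UMIs in WT B16F10.

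In B16F10 macrophages Ccl9 had a ratio of 1.60 (1.57 to 1.63) and Ccl6 one of 1.35, not past the size rule. Ccl9 was higher in C1q-negative monocytes, from 479 to 835 CPM, in transitional cells, from 647 to 1276, and in Mrc1+ macrophages, from 471 to 715. Ccl6 was higher in transitional cells, from 1858 to 3906 CPM. At a common mix of subsets the log2 fold of Ccl9 was 0.51, no longer past the size rule; Arg1+ Cxcl9- macrophages were 7.48% of the class in WT and 15.6% in Lrrc25-/- B16F10. In MC38 macrophages neither gene was past the size rule, with ratios of 0.911 for Ccl6 and 0.831 for Ccl9, while in neutrophils Ccl6 was lower at a ratio of 0.543 (0.458 to 0.645), where 12.6% of genes were lower; these were 96 and 172 cells.

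Ccl24, the Ccr3 ligand, was made by few cells. Its level in monocytes and macrophages was 40.8 CPM in WT B16F10, 98.01 in Lrrc25-/- B16F10, 3.15 in WT MC38 and 2.08 in Lrrc25-/- MC38. In B16F10 the tenth of the cells with the most Ccl24 held 97.7% of its UMIs in WT and 94.9% in Lrrc25-/-, compared with 44.8% and 49.2% for Ccl2. In MC38 no subset had more than 8.67 CPM. The B16F10 ratio was 2.40 (2.25 to 2.56), and it stayed past the size rule at a common mix of subsets with a log2 fold of 0.71. By subset it was higher in transitional cells, from 126 to 422 CPM, in Arg1+ Cxcl9- macrophages, from 191 to 309, in C1q-negative monocytes, from 85.2 to 148, in Cxcl9+ Arg1- macrophages, from 42.1 to 66.4, and in the remaining macrophages, from 20.3 to 70.3. In Mrc1+ and cycling macrophages the ratios were 1.16 and 1.26, not past the size rule.

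With the 4 libraries in one fit of genotype and model, none of the 8 genes passed the genotype test. edgeR's quasi-likelihood test with Benjamini-Hochberg adjustment called 12 of 14804 genes (0.0811%), and at an unadjusted p under 0.05 it called 600 genes (4.05%), among them 1 member, Ccl12. Its log2 fold was -0.59 (SE 0.246) with an edgeR p of 0.0324 and an adjusted p of 1.00. DESeq2 called 10 genes (0.0567%) and no member, and at an unadjusted p under 0.05 it gave 3 members, Ccl2, Ccl7 and Ccl12, beside 1.34% of genes. The other log2 folds by edgeR were -0.46 (SE 0.275) for Ccl2, -0.50 (SE 0.264) for Ccl7, 0.34 (SE 0.357) for Ccl8, 0.39 (SE 0.243) for Ccr2 and 0.53 (SE 0.299) for Ccl24. The fit has 1 residual degree of freedom, and the pools are single samples of each genotype and model.

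Between models the ligands stood far apart. All 7 ligands were lower in MC38 than in B16F10 macrophages by edgeR with adjustment, against 31% of genes that were lower and 32.5% that were higher. The log2 folds were -5.02 (SE 0.330, edgeR adjusted p = 1.19e-07) for Ccl24, -3.89 (SE 0.308, edgeR adjusted p = 4.57e-07) for Ccl2 and -3.56 (SE 0.291, edgeR adjusted p = 6.01e-07) for Ccl7. Ccl12 had -2.80, Ccl8 -2.20, Ccl6 -1.52 and Ccl9 -1.11, and the members' median was -2.50 against 0.03 over all genes. Ccr2, at 0.43 (SE 0.243, edgeR adjusted p = 0.136), did not pass. The call of Ccl8 is lost with DESeq2 (adjusted p = 0.0964), and Ccr2 passes in macrophages without C1q-negative monocytes (log2 fold 0.89, edgeR adjusted p = 0.0385). With library totals in place of TMM scaling, which moves the median of all genes to 0.41, the log2 fold of Ccr2 is 0.82 (edgeR adjusted p = 0.0196), and 6390 genes are higher and 2940 lower, beside 4805 and 4586 with TMM.

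Of 29 other genes of the system (receptors, decoy receptors, further CC ligands, coupling and inducing genes), 19 were measured in B16F10 macrophages, and 0 were past the size rule in either direction, against 4.63% of all genes measured. In MC38 20 were measured, with 1 higher and 1 lower, against 0.8% and 2.57% of all genes. Ccl5, a chemokine of T cells and myeloid cells, was higher, from 378 to 1094 CPM (log2 fold 1.53), and Ccl3, a ligand of Ccr1, was lower, from 130 to 75.1 (log2 fold -0.78). The receptors of the other members were present at different levels in the class. Ccr1, the receptor of Ccl6 and Ccl9, had 135 CPM in WT B16F10, 156 in Lrrc25-/- B16F10, 244 in WT MC38 and 176 in Lrrc25-/- MC38. Ccr3, the receptor of Ccl24, had 6.07, 6.71, 0.931 and 0.191 CPM. In C1q-negative monocytes of MC38, 5 of the 20 measured were lower, against 6.34% of all genes, namely Ccl3, Ccl4, Tnf, Nfkb1 and Nfkbia, and 1, Ccl5, was higher, against 7.93%. Of the 8 measured in the list of inducers, 3 were lower, and Rela and Il1b were among those not past the rule. Cycling macrophages of MC38 had 4 of 21 lower (Ccr1, Ccl3, Nfkb1 and Il1b), against 3.04% of genes. Transitional cells had 3 of 20 lower (Ccl3, Nfkbia and Tnf), against 7.33%, and Arg1+ Cxcl9+ macrophages 3 (Ccl3, Ccl4 and Tnf), against 4.34%. Arg1+ Cxcl9- macrophages had 0 lower, and Ccl5 was higher in each of these subsets. In B16F10 2 of 19 measured, Tnf and Il1b, were higher in transitional cells (14.2% of genes) and in Arg1+ Cxcl9- macrophages (5.84%). C1q-negative monocytes had 1 of 19 higher, Stat6 (13%). Cxcl9+ Arg1- macrophages had 1 of 19 higher, Arrb2 (9.92%), and 1 lower, Ccl5 (2.79%). Cycling, Mrc1+ and the remaining macrophages of B16F10 had 0 in either direction.

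The genes with levels most like each member, by Pearson r of log2(CPM + 1) over 37 sums of a class in a library among 11152 genes, are given as a description, since these sums share libraries. Ccl2 was most like Ccl7 (r = 0.948) and Cxcl1 (r = 0.887), and Ccl12 most like Pf4 (r = 0.916) and Ccl8 (r = 0.887). Ccl6 was most like Wfdc17 (r = 0.938) and Ccl9 most like Ccl6 (r = 0.912), so in each of these 3 neighbour pairs at least 1 gene had its neighbour among its closest matches. Ccr2 was most like Bin2 (r = 0.876), and Ccl24 most like Ppbp (r = 0.847). The closest match of Ccl8 was Ccl12 and the next was Ctsb (r = 0.872).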

How the data were processed

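Single-cell RNA-seq (SeekOne Digital Droplet 3' kit, which counts 3' ends with molecular identifiers) was made from 4 pooled tumor libraries, each 1 pool of 3 mice. The authors deposited a matrix of raw UMI counts per gene and barcode for each library, with the build mm10 per the submitters' processing notes; aligner, counter and cell calling were not given in the sources used here. The 8 genes and the gene lists were chosen with earlier results of these data known.

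From the deposited counts, cells with at least 300 genes, 500 UMIs and at most 20% mitochondrial UMIs were kept, and the cells with the highest Scrublet scores were removed as likely doublets, 0.5% for every 1000 cells. Scrublet's own threshold marked 0 or 1 cells in 3 libraries, so it was not used. A cell took the class whose markers scored at least 0.4 of the level of the 200 top cells with 3 or more markers detected, unless an unrelated list scored above 0.75 of the best. These limits and the subset limits (per 10000 UMIs: C1q genes 10, Ly6c2 with Plac8 10, cycling genes 10, Arg1 and Cxcl9 5, Mrc1 2) were set after cell counts were seen; 2.94% to 3.93% of monocytes and macrophages lay between 5 and 20 for C1q, and 5.46% to 22.5% between 2.5 and 10 for Arg1. Unassigned cells, 12.4% to 34.0% of kept cells, and cells with mixed markers entered no comparison, and classes under 50 cells were not compared.

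CPM are UMIs of a gene per 1000000 UMIs of the class, computed from the deposited counts. Folds use a pseudocount of 1 CPM. Levels have exact Poisson, shares exact Clopper-Pearson and ratios conditional binomial intervals, all at 95% and for counting error only, and shares were compared after thinning to 1000 UMIs. Sums of monocytes and macrophages were tested with edgeR 4.0.16 (R 4.3.3; TMM, filterByExpr, model and genotype, Benjamini-Hochberg 0.05), with DESeq2 1.42.0 as an alternative; the code was tested on simulated data. Cells were handled with scanpy 1.11.5. All 8 members are described; of the 29 other genes those past the size rule are named, and for each member 1 or 2 of the most alike genes; 1 gene is not reported here. Positions come from GENCODE M21, which held 32158 of the 32285 IDs, and promoters from RefSeq.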

Additional observations from a re-analysis of the deposited data

Results flagged for a closer look

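In 5 of the 8 genes the log2 fold of Lrrc25-/- over WT monocytes and macrophages had opposite signs in the 2 tumor models. Ccl8 had -0.48 in B16F10 and 1.12 in MC38. Ccr2 had 1.05 in B16F10 and -0.32 in MC38. Ccl9 had 0.68 and -0.27, and Ccl6 had 0.43 and -0.13, with neither value of Ccl6 past the size rule. Ccl24 had 1.24 and -0.43, the latter from levels of 3.15 and 2.08 CPM that are too low to be measured by the rule. Of the 7 members measured in both models 4 had opposite signs (57.1%), and of all 4210 genes measured in both 56.7% did, so the members' share is near that of all genes. Each sign rests on 1 pool against 1 pool, and the difference between the models was not tested.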

How the results depend on the processing

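No paired analysis was possible because each group held 1 library and the labels carry no replicate numbers; leaving out a library leaves no residual degrees of freedom, so that was not run either. No member's call changed direction under any alternative. At a common mix of subsets the members higher in B16F10 macrophages went from 3 to 1 (Ccl24) and those lower from 1 to 0. The members lower in MC38 went from 2 to 1 (Ccl7) with TMM-scaled CPM, in macrophages without C1q-negative monocytes and in thinned cells. The genotype test by edgeR called 102 genes with no filterByExpr, 2 with library totals, 1 with no doublet removal, 5 with the looser gate and 1 in macrophages without C1q-negative monocytes, beside 12.

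Over all genes, the size rule called 217 in B16F10 macrophages, but 701 with no floor, 404 in thinned cells, 140 with a pseudocount of 10 and 131 at a common mix. In MC38 it called 194, but 694 with no floor and 119 with a pseudocount of 10. TMM scaling gave 57 higher and 97 lower in MC38, beside 46 and 148. The class with the highest level of a member held in 30 of 32 cases with the stricter gate and in 26 of 32 with thinned shares; with the stricter gate, Sox9/Tnnt2/Crabp2+ cells led for Ccl2 in WT MC38, where fibroblasts fell under 50 cells, and by the mean of per-cell CPM fibroblasts led for Ccl2 in Lrrc25-/- B16F10. Ccl6 in MC38 macrophages, which was not past the size rule, had a log2 fold of 0.11 at a common mix against -0.13. Free RNA limits low values in classes that do not make a gene, and the single pools limit every comparison of genotypes.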

Other observations

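A few cells with Cpa3 and Fcer1a, markers of mast cells and basophils, were found in the B16F10 pools, 2 in WT and 8 in Lrrc25-/-. Their Ccl7 stood at 24407 and 21836 CPM and their Ccl2 at 7941 and 8133 CPM. The basophil gene Mcpt8 was at 0 in them. They were picked out after their values were seen and were too few to compare.

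Cells that no marker list claimed numbered 1150 in WT B16F10, 2165 in Lrrc25-/- B16F10, 5351 in WT MC38 and 4134 in Lrrc25-/- MC38. Their median depth, 1694 to 2878 UMIs, lay under that of the kept cells. Their Ccl6 stood at 1592, 1827, 683 and 573 CPM in the same order, and their Ccl9 at 525, 723, 292 and 282 CPM.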
